A study of Homo sapiens with 15 samples.

Results

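Oxidative phosphorylation subunits were followed in 15 human cholangiocarcinoma (CCA) xenografts as the protein-coding genes whose symbols begin with MT-, NDUFA, NDUFB, NDUFC, NDUFS, NDUFV, UQCR, COX4 to COX8 or ATP5, together with SDHA to SDHD. NDUFA4L2, assembly factors and pseudogenes were left out. This rule found 103 of the 58735 genes in the count table, of which 13 are encoded on the mitochondrial chromosome and 90 in the nucleus. The rule itself used symbols and no level. It also took in a few genes that are not chain subunits in the strict sense, such as ATP5IF1, the inhibitor of ATP synthase, ATP5S, a factor linked to that enzyme, and 2 read-through genes, ATP5MF-PTCD1 and NDUFC2-KCTD14.

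The tumors were cell line-derived xenografts (CDX) of 3 lines, with 5 tumors per line. HuCC-A1 and HuCC-T1 derive from intrahepatic bile duct cancer, and EGI-1 from extrahepatic bile duct cancer. All tumors grew in immunodeficient NRG mice given PBS, the vehicle of an antibody against claudin-1, by weekly intraperitoneal injection, for 6 weeks in HuCC-A1 and 4 weeks in EGI-1. No duration was given for HuCC-T1. The study treated HuCC-A1 as a strongly and EGI-1 as a weakly responding model, but only vehicle tumors were analysed here. Each model is 1 cell line, so a difference between models is a difference between 3 lines, grown in hosts that lack lymphocytes and supply mouse stroma. The labels number the 5 tumors of a model and state 5 mice per group, and p-values measure the spread between these tumors.

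The oxidative phosphorylation system sits in the inner mitochondrial membrane. Complexes I and II pass electrons from NADH and succinate to ubiquinone, complex III passes them to cytochrome c and complex IV to oxygen. Complexes I, III and IV pump protons, and complex V, the ATP synthase, uses the resulting gradient to make ATP. The mitochondrial genome encodes core subunits of complexes I, III, IV and V and is transcribed as long precursor RNAs, whereas complex II and all other subunits are encoded in the nucleus and imported. Assembly therefore needs products of both genomes.

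Library totals ran from 20001412 to 44067878 counts assigned to genes. Levels are CPM, counts scaled to a fixed total per library, with library totals adjusted by the trimmed mean of M values (TMM), and a gene was called when the edgeR quasi-likelihood test across all 15 tumors gave a Benjamini-Hochberg adjusted p below 0.05 over the 21019 genes with enough counts. All 13 mitochondrial and 84 of the 90 nuclear members were tested. The other 6 had too few counts for the test, namely ATP5MF-PTCD1 with 34 counts over all tumors, ATP5MGL with 28, NDUFC2-KCTD14 with 9, COX8C with 4, COX4I2 with 3 and COX6A2 with 0. Biliary and simple epithelial markers (7 of 7 detected, among them KRT7 and KRT19) summed to 8886 to 12397 CPM in HuCC-A1, 15621 to 26561 in EGI-1 and 7859 to 18837 in HuCC-T1. Human-aligned reads of fibroblast genes (7 of 7 detected in every model) summed to 423 to 948 CPM in HuCC-A1, 73.8 to 127 in EGI-1 and 96.9 to 504 in HuCC-T1, and endothelial genes to 15.4 to 31.2, 2.99 to 4.22 and 13.3 to 24.9, with KDR at 0 in HuCC-T1. Skeletal muscle genes summed to 15.9 to 80.0, 16.3 to 53.3 and 11.9 to 22.9 CPM, with MYH2 and MYL1 at 0 in EGI-1 and these and MYH1 at 0 in HuCC-T1. Hepatocyte genes summed to 347 to 625, 123 to 193 and 238 to 428 CPM. All 4 were detected, but only 1 of them had enough counts for the test. Leukocyte genes (5 of 5 detected, 4 tested) summed to 14.0 to 40.2, 13.4 to 21.8 and 7.16 to 25.4. Adipocyte genes stayed at or below 5.87 and red cell genes at or below 1.58. A detected gene had counts in the model, however few. In bulk tumors, fewer cells of a type and less RNA per cell cannot be told apart, and the part of host or other cells in the results was not tested.

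The 13 mitochondrial subunits together were higher in every HuCC-T1 tumor than in any EGI-1 tumor, and HuCC-A1 overlapped with both, while the nuclear subunits went both ways and were more often lower than higher in HuCC-T1. Summed over the 13 genes, the HuCC-A1 tumors held 98465, 43771, 54342, 36265 and 49963 CPM from replicate 1 to replicate 5. The EGI-1 tumors held 48696, 38497, 41136, 34001 and 48277 CPM. The HuCC-T1 tumors held 67191, 75287, 63791, 54002 and 61011 CPM. HuCC-A1 replicate 1 lay far above the other 4 tumors of its line, and HuCC-T1 did not overlap with EGI-1. The means were 56561 ± 24392 (SD, n = 5) in HuCC-A1, 42122 ± 6347 in EGI-1 and 64256 ± 7845 in HuCC-T1, a ratio of 1.53 for HuCC-T1 over EGI-1. Sums carry no test. Without HuCC-A1 replicate 1, the HuCC-A1 mean was 46085 ± 7853 (n = 4) and the mean ratio of mitochondrial to nuclear members was 6.93, beside 8.61 with it. These 13 genes took 3.24% to 9.93% of all counts in a library.

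The nuclear members summed to far less. Their sum was 5699 to 7175 CPM in HuCC-A1, 5179 to 8633 in EGI-1 and 4043 to 7399.9 in HuCC-T1, and all 3 ranges overlapped. Within a model this sum moved with that of 776 other genes whose principal transcript is shorter than 1000 bases. In HuCC-T1, replicate 1 was 0.50 above the mean of its model on the log2 scale for the nuclear members and 0.68 for the short genes, and replicate 3 was at -0.37 and -0.48. In EGI-1, replicate 1 was at 0.37 and 0.38 and replicate 5 at -0.36 and -0.44. The mitochondrial sum moved the same way in some tumors, at 0.21 in EGI-1 replicate 1, -0.25 in HuCC-T1 replicate 4 (nuclear -0.26) and -0.64 in HuCC-A1 replicate 4 (nuclear -0.21). In others it did not, at 0.20 in EGI-1 replicate 5, 0.06 in HuCC-T1 replicate 1 and 0.80 in HuCC-A1 replicate 1 (nuclear -0.04). The part of this drift of short transcripts in the nuclear results was not tested. The ratio of the mitochondrial to the nuclear sum was 9.08 to 17.8 in HuCC-T1 and 5.46 to 9.32 in EGI-1, and in HuCC-A1 it was 15.3 in replicate 1 and 6.10 to 7.93 in the other 4.

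Among single mitochondrial genes, 9 of 13 were called higher and 0 lower in HuCC-T1 against EGI-1, with a median log2 fold change of 0.78. Of all genes tested in that comparison, 27.3% were called higher and 25.0% lower, with a median of 0.06. In HuCC-A1 against EGI-1, 4 were called higher and 1 lower (median 0.53), where 29.4% of all genes were called higher and 26.0% lower. In HuCC-A1 against HuCC-T1, 0 were called higher and 2 lower by edgeR (median -0.35), where 29.1% and 27.2% of all genes were. Both counts of 0, lower in HuCC-T1 against EGI-1 and higher in HuCC-A1 against HuCC-T1, stayed at 0 at an unadjusted p below 0.05 and with limma-voom and DESeq2. The comparisons with HuCC-A1 turned on its replicate 1. Without that library, 1 was called higher and 2 lower against EGI-1, and 7 were called lower against HuCC-T1. The 4 called higher against EGI-1 were also 2 without EGI-1 replicate 2, 2 without EGI-1 replicate 4, and 7 without HuCC-A1 replicate 4.

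MT-CYB, the cytochrome b of complex III, was measured at 5808, 6801, 5554, 4224 and 4702 CPM in HuCC-T1, at 2434, 1963, 2157, 1753 and 3059 in EGI-1, and at 8423, 3115, 3745, 2312 and 3799 in HuCC-A1. All HuCC-T1 tumors were above all EGI-1 tumors, and the log2 fold change was 1.25 (SE 0.286, adjusted p = 0.00141), the largest among complex III in that comparison. HuCC-A1 overlapped with both, and its log2 fold change over EGI-1 was 0.91 (adjusted p = 0.0113) with all tumors and 0.49 (adjusted p = 0.0572) without replicate 1.

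Of the 7 mitochondrial subunits of complex I, MT-ND2, MT-ND4, MT-ND4L and MT-ND5 were called higher in HuCC-T1 than in EGI-1. MT-ND5, a proton-pumping subunit, was measured at 5586, 1805, 2192, 1604 and 2079 CPM in HuCC-A1, at 1000.5, 1046, 1235, 1083 and 1772 in EGI-1, and at 2232, 3515, 2683, 2496 and 2334 in HuCC-T1. The EGI-1 tumors were lowest, with 1 of them, replicate 5, above the lowest HuCC-A1 tumor. The log2 fold change over EGI-1 was 1.11 in both other models, with adjusted p = 0.00416 in HuCC-A1 and 0.00457 in HuCC-T1, and in HuCC-A1 it was 0.63 (adjusted p = 0.0136) without replicate 1. MT-ND4 and MT-ND4L, which share a transcript, were called higher over EGI-1 in HuCC-T1 (0.73 and 1.14) and in HuCC-A1 (0.65 and 0.88), but in HuCC-A1 neither call held without replicate 1 (adjusted p = 0.171 and 0.0987). The MT-ND4 call in HuCC-T1 was lost without EGI-1 replicate 2 or 4 or HuCC-T1 replicate 2 (0.62 to 0.68), the MT-ND4 call in HuCC-A1 also on removal of replicate 2, 3 or 4 of EGI-1 or replicate 3 of HuCC-A1 (0.34 to 0.64 in all), and the MT-ND4L call in HuCC-A1 also without EGI-1 replicate 1, 2 or 4 (0.58 to 0.81 in all). MT-ND2 had the largest log2 fold change of this group in HuCC-T1 against EGI-1, 1.18 (adjusted p = 0.000925), and it was lower in HuCC-A1 than in HuCC-T1 (-0.72, adjusted p = 0.0216).

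MT-ND3 and MT-ND1 had negative log2 fold changes in HuCC-A1 against EGI-1. MT-ND3 was at 328, 422, 290.3, 135 and 274 CPM in HuCC-A1, at 772, 713, 476, 385 and 517 in EGI-1, and at 592, 336, 284, 404 and 661 in HuCC-T1. In HuCC-A1, 1 tumor lay above the lowest EGI-1 tumor, and its range overlapped widely with that of HuCC-T1, from which it did not pass the test (-0.65, adjusted p = 0.0618). Replicate 1, the highest tumor for most other mitochondrial genes, was not raised. The log2 fold change of MT-ND3 against EGI-1 was -0.98 (SE 0.287, adjusted p = 0.00770), and -1.05 (adjusted p = 0.0104) without replicate 1. For MT-ND1 the log2 fold change of HuCC-A1 against EGI-1 was -0.43 (adjusted p = 0.146) with all tumors and -0.73 (adjusted p = 0.00609) without replicate 1. As a share of the 13, MT-ND1 took 3.78% to 4.75% in HuCC-A1, 6.27% to 9.06% in EGI-1 and 4.79% to 6.26% in HuCC-T1. EGI-1 thus lay above HuCC-A1, while its lowest tumor and the highest HuCC-T1 tumor were almost level. These shares leave out nuclear copies of MT-ND1, which held 3.04% to 4.25% of its level in HuCC-T1, so EGI-1 and HuCC-T1 are not clearly apart.

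**Figure D1:**
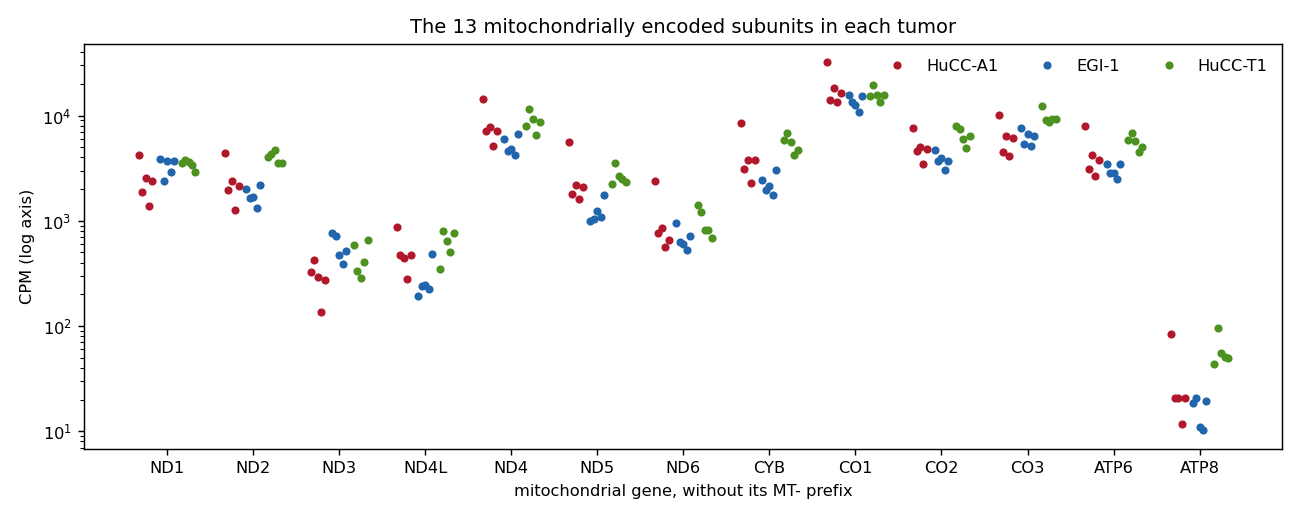
CPM on a log axis of each of the 13 mitochondrially encoded subunits, with 1 point per tumor, 5 per model, colored by model. The HuCC-T1 points lie above the EGI-1 points for most genes, HuCC-A1 replicate 1 is the highest HuCC-A1 point for all genes but MT-ND3, and for MT-ND3 the HuCC-A1 points, at 135 to 422 CPM, overlap with both other models.

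The catalytic core of complex IV made up the largest part of the mitochondrial messages. MT-CO1 took 32.1% to 36.7% of the 13 in HuCC-A1, 30.7% to 34.6% in EGI-1 and 22.9% to 25.9% in HuCC-T1, where it did not reach the other models. MT-CO3 took 10.2% to 12.3% in HuCC-A1, 13.2% to 16.4% in EGI-1 and 12.1% to 18.2% in HuCC-T1. Per kilobase, MT-CO1 had the highest mean in HuCC-A1 (12199 ± 4959.7 CPM, SD, n = 5) and EGI-1 (8799 ± 1314), and MT-CO3 in HuCC-T1 (12394 ± 1810.3). The other of these genes stood next in EGI-1 (MT-CO3, 7988 ± 1304), in HuCC-A1 (MT-CO3, 7998 ± 3075) and in HuCC-T1 (MT-CO1, 10357 ± 1427), and in each model the spreads of the pair met. MT-CO2 and MT-CO3 were called higher in HuCC-T1 than in EGI-1 (0.78 and 0.63), and MT-CO3 was lower in HuCC-A1 than in HuCC-T1 (-0.63). The MT-CO3 calls were lost without EGI-1 replicate 2 or 4 (0.57 to 0.58) and without HuCC-A1 replicate 2 (-0.53). MT-CO1 was called in no comparison (0.47 in HuCC-A1 against EGI-1, adjusted p = 0.0978).

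MT-ATP6 and MT-ATP8, the membrane subunits of ATP synthase, lie on overlapping reading frames. MT-ATP8 (chrM:8366-8572 on GRCh38, plus strand) shares 46 of its 207 bases with MT-ATP6, so a read there belongs to both. Its sequence in the reference genome is printed to show that overlap, with the shared bases in capitals.
MT-ATP8: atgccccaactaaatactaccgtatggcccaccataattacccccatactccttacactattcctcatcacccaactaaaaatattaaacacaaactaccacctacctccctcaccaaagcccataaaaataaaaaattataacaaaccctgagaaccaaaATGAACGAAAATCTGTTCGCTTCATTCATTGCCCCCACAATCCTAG
Both genes come from a shared transcript, yet MT-ATP6 was counted at a mean of 3032 to 5585 CPM and MT-ATP8 at 16.0 to 59.0 CPM by model. Per kilobase this was 4453 to 8201 CPM for MT-ATP6 and 77.1 to 285 for MT-ATP8. How the counting handled reads that overlap 2 genes was not given. MT-ATP8 was at 43.5, 95.4, 55.9, 50.3 and 49.7 CPM in HuCC-T1 and at 18.5, 20.7, 11.0, 10.2 and 19.4 in EGI-1, with no overlap (log2 fold change 1.89, adjusted p = 0.00130). In HuCC-A1 replicate 1 was at 83.7 and the other 4 at 11.7 to 20.9 CPM. MT-ATP6 rose in HuCC-T1 against EGI-1 by 0.88 on the log2 scale (adjusted p = 0.00703). MT-ND6, the only one of the 13 encoded on the other strand of the mitochondrial genome, was called in no comparison (0.61 in HuCC-A1 and 0.53 in HuCC-T1 against EGI-1, adjusted p = 0.136 and 0.193).

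Counts assigned to nuclear copies of mitochondrial genes differed between the models. Whether these reads came from mitochondrial messages or from the copies themselves was not tested. Copies named after MT-ND1 held 107 to 151 CPM in HuCC-T1, or 3.04% to 4.25% of MT-ND1, and less than 1 CPM in each tumor of the other models. Copies of MT-ND2 held 9.66% to 14.2% of MT-ND2 in EGI-1, 4.20% to 5.29% in HuCC-T1 and 2.21% to 3.68% in HuCC-A1. With the copies added to the gene, the log2 ratio of the mean MT-ND2 level was 1.09 for HuCC-T1 over EGI-1, beside a fitted 1.18 for the gene alone. For MT-ND1 in HuCC-A1 against EGI-1 it was -0.43 either way, where the copies held too little to move it. With the copies, MT-ND1 was at 0.10 in HuCC-T1 against EGI-1 and -0.52 in HuCC-A1 against HuCC-T1, beside 0.04 and -0.47 alone. For MT-ATP6 the ratios with copies were 0.49, 0.88 and -0.39 in the 3 comparisons, beside 0.53, 0.88 and -0.35 alone.

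The nuclear subunits went both ways. In HuCC-A1 against EGI-1, 14 of 84 were called higher and 23 lower, a share of 44.0% where 55.4% of all genes were called, with a median log2 fold change of -0.16. In HuCC-T1 against EGI-1, 7 were called higher and 29 lower, 42.9% where 52.3% of all genes were, with a median of -0.35. In HuCC-A1 against HuCC-T1, 27 were called higher and 13 lower, 47.6% where 56.3% of all genes were, with a median of 0.30. With library totals and no TMM factors, the split in HuCC-A1 against EGI-1 was 18 higher and 18 lower, since that scaling moved the median of all genes from 0.06 to 0.22. The 29 called lower in HuCC-T1 became 19 without EGI-1 replicate 1 and 19 without HuCC-T1 replicate 3. Of the 84, 12 (14.3%) were called higher in HuCC-A1 than in both other models, beside 16.0% of all tested genes, 10 (11.9%) lower than in both, beside 14.9%, and 22 (26.2%) were called in no comparison, beside 20.5%.

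In complex II, the only complex made of nuclear products alone, SDHA and SDHD stood in opposite orders over the models. SDHA (chr5:218241-256700), the flavoprotein that oxidizes succinate, was at 394, 513, 406, 385 and 408 CPM in HuCC-A1, at 293, 243, 212, 226 and 212 in EGI-1, and at 192, 84.7, 124, 132 and 167 in HuCC-T1. The 3 models did not overlap and stood in that order. SDHD (chr11:112086773-112120013), a membrane anchor of the same enzyme, was at 23.1, 25.3, 33.3, 23.6 and 28.3 CPM in HuCC-A1, at 60.0, 66.9, 60.6, 52.0 and 55.9 in EGI-1, and at 93.5, 99.7, 86.7, 68.8 and 125 in HuCC-T1. It too separated the models, in the reverse order.

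The log2 fold change of SDHA was 0.83 (SE 0.184, adjusted p = 0.000991) in HuCC-A1 against EGI-1, -0.76 (adjusted p = 0.00221) in HuCC-T1 against EGI-1 and 1.59 (adjusted p = 1.67e-06) in HuCC-A1 against HuCC-T1. For SDHD these were -1.14 (SE 0.155, adjusted p = 8.13e-06), 0.68 (adjusted p = 0.00125) and -1.83 (adjusted p = 4.44e-08). The exact permutation test over 5 against 5 tumors, two-sided, gave p = 0.00794 for each of these 6 differences, the smallest it can give. SDHC, the other anchor, was called higher in HuCC-A1 than in both other models (0.45 and 0.36). SDHB, which carries the iron-sulfur clusters, was lower in HuCC-T1 than in EGI-1 (-0.48) and higher in HuCC-A1 than in HuCC-T1 (0.45). Between HuCC-A1 and HuCC-T1, SDHC was not called without HuCC-A1 replicate 3 (0.28) nor SDHB without HuCC-T1 replicate 1 (0.35). The 3 pseudogenes of SDHA held 6.71% to 17.1% of its level in HuCC-A1, 11.6% to 17.3% in EGI-1 and 22.7% to 46.4% in HuCC-T1. Added to it, they left log2 ratios of the means of 0.79, -0.58 and 1.38 in the same order of comparisons.

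The starts of nuclear subunit genes are known for sites of NRF1 and of ETS factors such as GABP, which link them to mitochondrial biogenesis, and for YY1. RefSeq windows of 250 bases before and 50 after the start (GRCh38.p14) were found for 71 of the 90 nuclear members. The NRF1 core CGCATGCG, which reads alike on both strands, stood in 11 (15.5%) and in 2.89% of 14896 windows of protein-coding genes. The ETS and GABP core CCGGAAG on either strand stood in 20 (28.2%), beside 14.4%, and the YY1 motif AAGATGGCG in 8 (11.3%), beside 2.83%. CCAAT stood in 35.2% and 36.4% and GGGCGG in 62.0% and 59.5%, and motifs were searched independently, so that letters could count for more than 1. A match describes these letters only. SDHB and SDHD went in opposite directions in HuCC-T1 against EGI-1, and their windows are given. The NRF1, ETS and YY1 letters are in capitals.
SDHB, chr1:17053983-17054282, minus strand: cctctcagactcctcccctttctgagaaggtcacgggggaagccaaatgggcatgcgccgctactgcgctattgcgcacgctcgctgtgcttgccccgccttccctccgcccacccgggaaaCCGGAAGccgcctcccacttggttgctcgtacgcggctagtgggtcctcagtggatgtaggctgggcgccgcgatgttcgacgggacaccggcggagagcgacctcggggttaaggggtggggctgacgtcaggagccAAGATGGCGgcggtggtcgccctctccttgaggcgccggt
SDHD, chr11:112086623-112086922, plus strand: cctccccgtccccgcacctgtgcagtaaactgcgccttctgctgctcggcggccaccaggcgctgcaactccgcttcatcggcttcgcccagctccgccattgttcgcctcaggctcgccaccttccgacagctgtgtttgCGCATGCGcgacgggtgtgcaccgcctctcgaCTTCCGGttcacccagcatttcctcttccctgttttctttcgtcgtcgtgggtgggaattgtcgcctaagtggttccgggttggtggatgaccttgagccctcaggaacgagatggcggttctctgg
SDHD held an NRF1 and an ETS match and SDHB an ETS and a YY1 match. SDHA, which stood further from SDHD than SDHB did in that comparison, held none of the 3, and its window is not printed.

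In complex I, 6 of 37 nuclear subunits were called higher and 11 lower in HuCC-A1 against EGI-1, 2 and 9 in HuCC-T1 against EGI-1, and 9 and 7 in HuCC-A1 against HuCC-T1. These were 45.9%, 29.7% and 43.2%, each below the 55.4%, 52.3% and 56.3% of all genes called. NDUFB5 (chr3:179604690-179627647), an accessory subunit of the membrane arm, was at 133, 117, 125, 95.2 and 102 CPM in HuCC-A1, at 48.9, 49.0, 40.3, 41.4 and 40.5 in EGI-1, and at 78.5, 63.7, 58.8, 47.7 and 72.6 in HuCC-T1. HuCC-A1 lay above both other models in all tumors, with log2 fold changes of 1.38 (SE 0.146, adjusted p = 4.71e-07) over EGI-1 and 0.83 (adjusted p = 0.000105) over HuCC-T1. NDUFB2 and NDUFC2, also accessory subunits of the membrane arm, were lowest in HuCC-A1. NDUFB2 was at 15.5 to 28.6 CPM there, 37.9 to 72.5 in EGI-1 and 31.9 to 70.8 in HuCC-T1 (log2 fold changes -1.30 and -1.22), and NDUFC2 was at 10.3 to 13.1, 22.5 to 33.4 and 15.7 to 34.6 (-1.19 and -0.85). NDUFB2 shares 35.1% of its exon bases with genes on the opposite strand, mainly BRAF, and the strand setting of the counting was not given.

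NDUFV2, a core subunit of the NADH-oxidizing module, had the largest increase of complex I in HuCC-A1 against EGI-1, but at a low level. It was at 6.66 to 12.9 CPM in HuCC-A1, 1.49 to 2.45 in EGI-1 and 1.85 to 5.54 in HuCC-T1 (log2 fold changes of HuCC-A1 2.29 and 1.58). Its pseudogene held up to 127% of the level of the gene in HuCC-A1 and 131% in EGI-1, so reads may have been divided between the copies and its value is uncertain. NDUFV2 also shares 28.4% of its exon bases with AP005263.1 on the same strand. NDUFS6, a zinc-binding subunit of the peripheral arm, was at 98.5, 183, 93.6, 72.8 and 91.4 CPM in HuCC-A1, at 126, 97.9, 55.3, 60.8 and 46.5 in EGI-1, and at 66.2, 14.3, 15.7, 29.7 and 51.0 in HuCC-T1. It was called higher in HuCC-A1 than in HuCC-T1, with no overlap (1.61, adjusted p = 0.00243), and lower in HuCC-T1 than in EGI-1, with overlap (-1.13, adjusted p = 0.0235), a call lost without EGI-1 replicate 1 or 2 or HuCC-T1 replicate 2, 3 or 4 (-1.07 to -0.88). Among other called members, NDUFA11 was lower in HuCC-T1 against EGI-1 (-1.19) and NDUFB4 lower in HuCC-A1 against HuCC-T1 (-0.93).

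In complex III, UQCRC2 (chr16:21952660-21983660), a core protein of the complex, was at 216, 189.5, 219.6, 233 and 229 CPM in HuCC-A1, at 101, 79.9, 96.1, 90.0 and 92.4 in EGI-1, and at 160.0, 137, 97.6, 106 and 142 in HuCC-T1. HuCC-A1 stood above the other models in all tumors, and EGI-1 and HuCC-T1 overlapped in 1 tumor each. The log2 fold changes were 1.24 (SE 0.140, adjusted p = 9.65e-07) for HuCC-A1 and 0.48 (adjusted p = 0.00715) for HuCC-T1 over EGI-1, and 0.76 (adjusted p = 0.000170) for HuCC-A1 over HuCC-T1. UQCRH, the hinge protein, and UQCRFS1, the Rieske iron-sulfur protein, were both called lower in HuCC-T1 than in EGI-1 (-0.75 each) and than in HuCC-A1. UQCRB, a ubiquinone-binding subunit, was called higher in HuCC-T1 against EGI-1 (0.53), and UQCRQ, another small subunit, lower in HuCC-A1 against EGI-1 (-0.71). The UQCRB call was lost without HuCC-T1 replicate 1 or 5 or EGI-1 replicate 3, 4 or 5 (0.30 to 0.51), and the UQCRQ call without EGI-1 replicate 1 or 2 or HuCC-A1 replicate 1, 3, 4 or 5 (-0.77 to -0.54). UQCRHL, a copy of UQCRH, was at a mean of 3.09 CPM in HuCC-A1 and 1.32 in HuCC-T1 (1.22), a call lost without HuCC-A1 replicate 2 (0.95).

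Complex IV has tissue-restricted isoforms, and these made the largest differences of all members. COX6B2 (chr19:55349306-55354814), an isoform of COX6B1 known from testis, was at 77.1, 53.0, 40.2, 53.8 and 38.2 CPM in EGI-1. It was at 3.40, 5.95, 4.02, 6.02 and 2.91 CPM in HuCC-A1 and at 2.91, 2.66, 4.26, 3.25 and 1.46 in HuCC-T1. EGI-1 stood apart from both, with log2 fold changes of -3.56 (SE 0.294, adjusted p = 2.32e-08) in HuCC-A1 and -4.17 (SE 0.304, adjusted p = 7.72e-09) in HuCC-T1, and HuCC-A1 and HuCC-T1 did not pass the test (0.61, adjusted p = 0.0699). Per kilobase of principal transcript, COX6B2 made up 9.77% to 14.7% of the COX6B1 and COX6B2 sum in EGI-1, 1.03% to 2.54% in HuCC-A1 and 0.580% to 2.98% in HuCC-T1. The transcripts taken have 667 bases for COX6B1 and 2083 for COX6B2. Without division by length, the EGI-1 means were 121 CPM for COX6B1 and 52.4 for COX6B2. COX6B2 shares 30.9% of its exon bases with genes on the same strand.

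COX7B2, the testis-known isoform of COX7B, was seen almost exclusively in HuCC-A1. It was at 4.50, 8.25, 6.64, 3.45 and 6.23 CPM there, or 851 counts. In EGI-1 it had 1 count, in replicate 2, and in HuCC-T1 4 counts, all in replicate 1, and the other 4 tumors of either model were at 0. The ratio of pooled levels was 1040.3 over EGI-1 (95% exact interval of the counts 186 to 41137) and 209.8 over HuCC-T1 (81.6 to 772), and the intervals cover counting error only. The edgeR test called both differences (adjusted p = 3.71e-08 and 1.05e-07). Per kilobase it made up 40.6% to 53.9% of the COX7B and COX7B2 sum in HuCC-A1. This share rests on the principal transcripts taken, of 2471 bases for COX7B and 617 for COX7B2. Without division by length, the HuCC-A1 means were 27.1 CPM for COX7B and 5.81 for COX7B2. COX7B itself was highest in HuCC-T1, at 39.7 to 94.3 CPM beside 26.3 to 39.7 in EGI-1 and 20.2 to 31.1 in HuCC-A1 (0.84 over EGI-1, and -1.08 for HuCC-A1 against HuCC-T1).

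The windows at the starts of these pairs set the restricted isoforms beside their widely expressed partners, with the NRF1, ETS and YY1 letters in capitals.
COX6B1, chr19:35648073-35648372, plus strand: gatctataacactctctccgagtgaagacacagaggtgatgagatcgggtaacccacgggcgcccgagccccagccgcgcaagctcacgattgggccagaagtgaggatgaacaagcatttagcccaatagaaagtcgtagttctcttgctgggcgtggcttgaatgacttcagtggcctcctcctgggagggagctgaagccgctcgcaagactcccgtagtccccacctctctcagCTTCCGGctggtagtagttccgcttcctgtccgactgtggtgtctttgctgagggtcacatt
COX6B2, chr19:55354670-55354969, minus strand: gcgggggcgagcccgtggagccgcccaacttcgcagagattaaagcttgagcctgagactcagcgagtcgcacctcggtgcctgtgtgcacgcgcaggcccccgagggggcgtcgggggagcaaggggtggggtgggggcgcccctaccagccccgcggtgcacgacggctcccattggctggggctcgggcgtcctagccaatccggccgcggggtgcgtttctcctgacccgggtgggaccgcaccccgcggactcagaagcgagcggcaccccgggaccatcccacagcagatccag
COX7B, chrX:77899218-77899517, plus strand: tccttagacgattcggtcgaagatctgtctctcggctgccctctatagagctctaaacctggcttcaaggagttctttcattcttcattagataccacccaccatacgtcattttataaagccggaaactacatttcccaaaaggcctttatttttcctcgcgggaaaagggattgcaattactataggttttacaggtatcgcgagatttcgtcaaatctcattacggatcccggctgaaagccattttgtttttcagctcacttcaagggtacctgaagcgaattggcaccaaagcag
COX7B2, chr4:46909196-46909495, minus strand: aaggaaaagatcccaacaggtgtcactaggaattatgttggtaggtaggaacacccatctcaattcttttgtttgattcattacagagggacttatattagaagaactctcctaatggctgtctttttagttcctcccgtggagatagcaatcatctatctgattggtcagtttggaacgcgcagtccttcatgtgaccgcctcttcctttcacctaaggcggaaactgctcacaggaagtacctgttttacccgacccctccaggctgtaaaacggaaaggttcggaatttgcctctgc
COX6B1 held an ETS match and the other 3 held none of these motifs. The windows held 16, 31, 14 and 8 CpG dinucleotides from top to bottom, with a median of 23.0 over the 71 members and 22.0 over all windows. No methylation was measured here.

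Other tissue-restricted isoforms were near the floor. COX6A2, a heart and muscle form, had 0 counts in all tumors, which allows up to 3 counts per model, and COX4I2, the lung-type form, had 3 counts. COX7A1, also a heart and muscle form, was at a mean of 0.706 CPM in HuCC-A1, 1.02 in EGI-1 and 0.410 in HuCC-T1. COX7A1 was lower in HuCC-T1 than in EGI-1 (-1.29), a call lost under 12 of the 15 removals of 1 tumor (-1.32 to -1.09). Their widely expressed partners carried nearly all of each pair, and COX4I1 and COX6A1 were higher in HuCC-A1 than in HuCC-T1 (0.64 and 0.70) and COX4I1, COX6B1 and COX8A lower in HuCC-T1 than in EGI-1 (-0.59, -0.76 and -0.99). Of these, the COX4I1 calls were lost under 5 and 13 removals of 1 tumor, that of COX6A1 under 11 and that of COX6B1 under 4, and that of COX8A under none. COX8A shares 34.5% of its exon bases with AP000721.1 on the same strand, so its counts may be divided.

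COX7A2 (chr6:75237675-75250323) was at 56.9, 87.0, 65.4, 47.8 and 57.5 CPM in HuCC-A1, at 193, 177, 132, 120.1 and 104 in EGI-1, and at 60.1, 34.8, 23.6, 27.3 and 46.2 in HuCC-T1. EGI-1 stood above both other models in all tumors, with log2 fold changes of -1.21 (adjusted p = 0.000455) in HuCC-A1 and -1.92 (adjusted p = 6.51e-06) in HuCC-T1. COX7A2L, a supercomplex factor related to it, was lower in HuCC-A1 than in both other models (-0.83 and -0.57). NDUFA4, once assigned to complex I and now to complex IV, was highest in HuCC-A1 at 111 to 184 CPM, beside 46.5 to 79.9 in EGI-1 and 75.3 to 141 in HuCC-T1 (1.24 over EGI-1 and 0.53 over HuCC-T1). The call over HuCC-T1 was lost without HuCC-A1 replicate 2 or 3 or HuCC-T1 replicate 2, 3 or 4 (0.42 to 0.48). COX5A, a matrix-side subunit, was also higher in HuCC-A1 than in both (0.76 and 0.94), while COX7C was lower (-0.87 and -1.13).

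**Figure D2:**
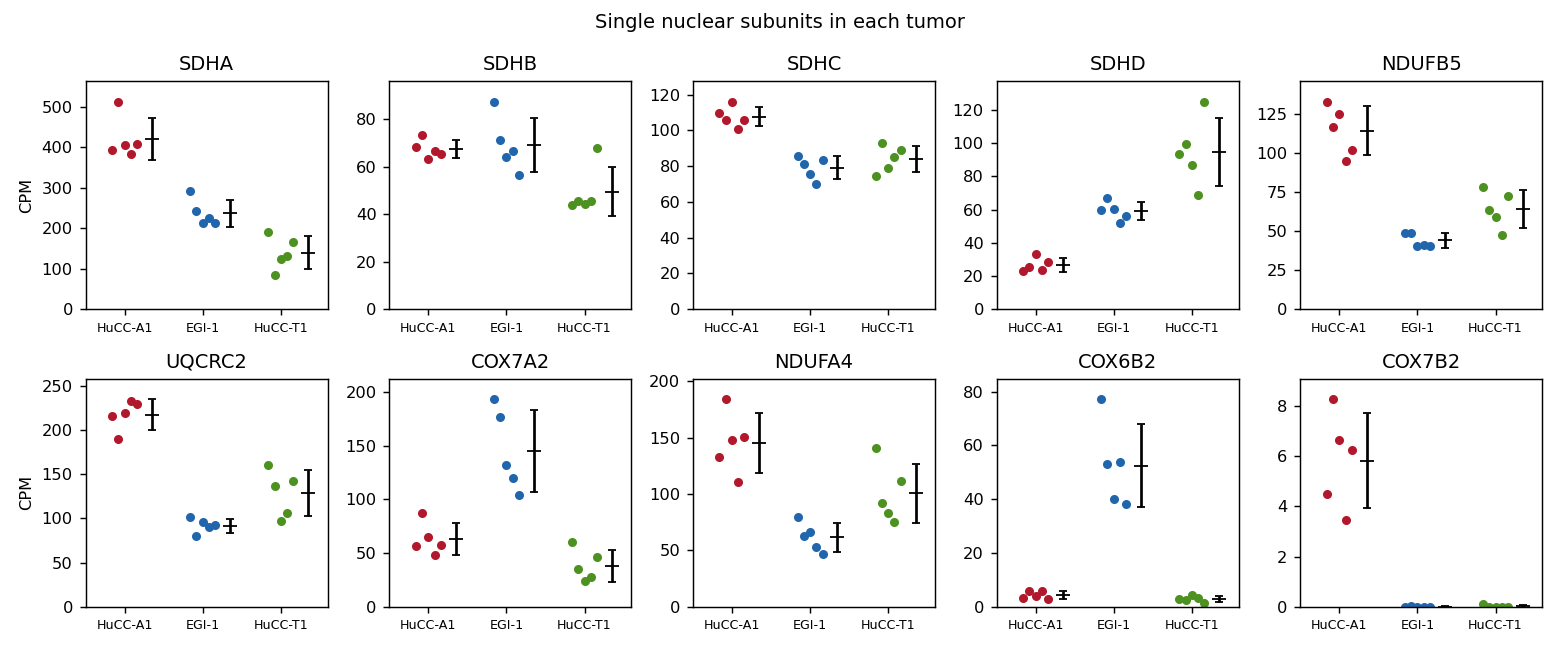
CPM of 10 nuclear subunits, with 1 point per tumor, 5 per model, and the mean and SD in black. SDHA falls and SDHD rises from HuCC-A1 over EGI-1 to HuCC-T1, NDUFB5 and UQCRC2 are highest in HuCC-A1, COX7A2 and COX6B2 in EGI-1, and COX7B2 is above 3 CPM in HuCC-A1 only.

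In complex V, 2 of 19 nuclear members were called higher and 6 lower in HuCC-A1 against EGI-1, 0 and 8 in HuCC-T1 against EGI-1, and 3 and 1 in HuCC-A1 against HuCC-T1. These shares, 42.1%, 42.1% and 21.1%, also lay below those of all genes. The count of 0 higher by edgeR stayed at 0 at an unadjusted p below 0.05 and with limma-voom and DESeq2. ATP5F1B, the catalytic beta subunit, was at 646 to 806 CPM in HuCC-A1, 473 to 647 in EGI-1 and 305 to 587 in HuCC-T1 (0.49 and 0.81 for HuCC-A1 over EGI-1 and HuCC-T1). The call over EGI-1 was lost on removal of replicate 2, 4 or 5 of EGI-1, or of replicate 5 of HuCC-A1 (0.44 to 0.45). ATP5F1C, the gamma subunit of the central stalk, was highest in EGI-1 at 128 to 168, beside 62.7 to 103 in HuCC-A1 and 61.6 to 95.1 in HuCC-T1 (-0.95 and -0.89). ATP5ME, a small membrane subunit, was at 5.60 to 9.50 CPM in HuCC-A1, 12.4 to 27.9 in EGI-1 and 4.08 to 13 in HuCC-T1 (-1.50 and -1.51). HuCC-T1 replicate 1 lay above the lowest EGI-1 tumor, and 61.6% of its exon bases lie opposite other genes, mainly MYL5. ATP5MF, another membrane subunit, was higher in HuCC-A1 (0.94 over EGI-1 and 1.14 over HuCC-T1), and ATP5MD, also in the membrane part, lower (-0.81 and -0.63, the latter lost without HuCC-A1 replicate 4 or HuCC-T1 replicate 1, at -0.56 and -0.53). Of the 3 genes for the identical c-ring protein, ATP5MC3 was lower in HuCC-A1 and HuCC-T1 than in EGI-1 (-0.67 and -0.92, the former lost without EGI-1 replicate 1, at -0.54), and ATP5MC1 and ATP5MC2 were called in no comparison. ATP5IF1, which blocks the enzyme from consuming ATP, was lower in HuCC-T1 than in EGI-1 (-1.11, adjusted p = 0.00131) and did not pass in HuCC-A1 (-0.56, adjusted p = 0.0683).

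Nuclear members tended to go with the genes around them. For 79 members with at least 5 other tested protein-coding genes within 1 Mb, the log2 fold change of the member and the median of these neighbors gave a Pearson r of 0.723 and a Spearman rho of 0.766 in HuCC-A1 against EGI-1, 0.595 and 0.607 in HuCC-T1 against EGI-1, and 0.80 and 0.752 in HuCC-A1 against HuCC-T1. Over 13931 tested protein-coding genes, members included, r was 0.316, 0.339 and 0.306 and rho was 0.418, 0.458 and 0.424. These genes were not matched to the members in level or in spread of fold changes. The gap between the 79 members and all genes therefore does not show a trait of these subunits. These correlations run across genes, which share libraries and, where members lie close, neighbors, and they are descriptions with no test. Of the called members, 31 of 32, 28 of 33 and 37 of 37 had the sign of their neighbors' median in the 3 comparisons. The same share was not counted over all called genes, so these counts have no background to be read against. Around SDHD, 12 of 17 neighbors were called lower and 2 higher in HuCC-A1 against EGI-1 (median -1.71), and around SDHA 12 of 15 were called higher and 1 lower (median 1.20). NDUFB2 lay among 13 neighbors with 10 called lower (median -1.12), and NDUFV2 among 9 with 8 called higher (median 2.29). COX6B2 fell much further than its neighbors there, at -3.56 among 44 with a median of -0.27. In HuCC-T1 against EGI-1, some called members went against their neighbors. SDHA was at -0.76 among 15 neighbors with 6 called higher and 4 lower (median 0.48). NDUFS6 was at -1.13 beside a median of 0.48, and ATP5MC3 at -0.92 beside 0.74. COX7B2 had only 4 neighbors and was left out. Copy number was not measured in these data.

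Other genes of the pathway were counted from lists, to be read beside the 55.4%, 52.3% and 56.3% of all genes called in the same order of comparisons. Of 50 assembly factors, 9 were called higher and 9 lower in HuCC-A1 against EGI-1, 10 and 17 in HuCC-T1 against EGI-1, and 13 and 10 in HuCC-A1 against HuCC-T1, or 36.0%, 54.0% and 46.0%, with medians of -0.02, -0.04 and 0.13. The largest falls were in factors of complex II. SDHAF2, which inserts flavin into SDHA, was lower in HuCC-A1 than in both other models (-2.22 and -1.48), SDHAF4 was lower in HuCC-T1 against EGI-1 (-1.92), and SDHAF1 was higher in HuCC-A1 against HuCC-T1 (1.60). Of factors for complex IV, COX10 was higher in HuCC-A1 against EGI-1 (1.09) and COX20 in HuCC-T1 against EGI-1 (1.48). Of 78 mitochondrial ribosomal genes, which translate the 13 messages, 10 were called higher and 29 lower in HuCC-A1 against EGI-1, 9 and 27 in HuCC-T1 against EGI-1 and 22 and 20 in HuCC-A1 against HuCC-T1, or 50%, 46.2% and 53.8%. The largest changes were MRPS17 (1.48) and MRPS35 (-1.48) in HuCC-A1 against EGI-1, MRPL3 (1.26) and MRPL41 (-1.60) in HuCC-T1 against EGI-1, and MRPL34 (1.56) and MRPL33 (-0.96) in HuCC-A1 against HuCC-T1.

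Of 31 genes that transcribe, copy or handle mitochondrial DNA and RNA, 6 were called higher and 3 lower in HuCC-A1 against EGI-1, 9 and 3 in HuCC-T1 against EGI-1, and 6 and 8 in HuCC-A1 against HuCC-T1, or 29%, 38.7% and 45.2%, where 55.4%, 52.3% and 56.3% of all genes were called. MTERF1, a termination factor, was higher than in EGI-1 in both (1.57 and 1.98), and SSBP1, the single-stranded DNA binding protein, was lower in HuCC-A1 than in both (-1.17 and -1.57). ELAC2, which cuts transfer RNA from precursors, was lower in HuCC-T1 against EGI-1 (-0.70), and KIAA0391, the nuclease of mitochondrial RNase P, higher in HuCC-A1 against HuCC-T1 (1.12). Of 16 regulators of nuclear subunit genes, 2 and 4, 9 and 2, and 2 and 7 were called higher and lower in the 3 comparisons, or 37.5%, 68.8% and 56.2%. PPARGC1B, a coactivator of mitochondrial biogenesis, was at a mean of 33.0 CPM in HuCC-A1, 0.668 in EGI-1 and 6.78 in HuCC-T1 (5.60 and 3.32 over EGI-1), and TFEB, a regulator of lysosomal genes, was lower than in EGI-1 in both (-2.29 and -2.20). ESRRG, a nuclear receptor, was lower in HuCC-A1 against HuCC-T1 (-3.00). Of 17 genes of the citric acid cycle and pyruvate dehydrogenase, 4 and 7, 2 and 5, and 6 and 3 were called higher and lower, or 64.7%, 41.2% and 52.9%. DLAT, the acetyltransferase of pyruvate dehydrogenase, was lower in HuCC-A1 than in both (-1.83 and -1.45). MDH2, malate dehydrogenase, was higher in HuCC-A1 against HuCC-T1 (1.48), and DLD, a shared dehydrogenase subunit, higher in HuCC-A1 against EGI-1 (1.36). In HuCC-T1 against EGI-1, IDH3G was higher (0.58) and SUCLA2 lower (-0.65).

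Carriers that exchange ATP and ADP across the inner membrane differed by isoform. SLC25A5 was higher than in EGI-1 in HuCC-A1 (1.21, 386 against 166 CPM) and HuCC-T1 (0.79), whereas SLC25A6 was lower in HuCC-A1 than in EGI-1 (-1.54, 188 against 545 CPM) and HuCC-T1 (-1.58). SLC25A4, the muscle form, was lower in HuCC-T1 against EGI-1 (-0.73). Of 10 carriers, porins and genes that shape the inner membrane, 2 were called higher and 7 lower in HuCC-A1 against EGI-1, 3 and 2 in HuCC-T1 against EGI-1, and 0 and 6 in HuCC-A1 against HuCC-T1, or 90.0%, 50% and 60.0%, beside the 55.4%, 52.3% and 56.3% of all genes. Beside that count of 0 higher by edgeR, 1 gene, SLC25A5, was higher in HuCC-A1 at an unadjusted p below 0.05 (adjusted p = 0.0643), which limma-voom called (adjusted p = 0.0348) and DESeq2 did not (adjusted p = 0.0665). Among 10 electron carriers and further dehydrogenases, 2 and 3, 2 and 2, and 4 and 1 were called higher and lower, or 50%, 40.0% and 50%. CYCS, which encodes cytochrome c, was higher in HuCC-T1 against EGI-1 (1.15), and CHDH, choline dehydrogenase, was lower than in EGI-1 in both (-2.30 and -1.74). PRODH, proline dehydrogenase, was called higher in HuCC-A1 than in both (2.38, adjusted p = 0.0284, and 2.11, adjusted p = 0.0473), with overlap in both comparisons. GPD2 was lower in HuCC-A1 against HuCC-T1 (-0.93). Genes of these lists, PRODH among them, were not checked by leaving out a tumor.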

How the data were processed

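RNA of 15 vehicle-treated CDX tumors was analysed from a table of read counts per gene. According to the submitters' processing notes, CASAVA, HISAT2 2.0.5 on GRCh38 and featureCounts 1.5.0-p3 were used, after Triazol extraction and NEBNext Ultra II Directional libraries. Not given in the sources used here: strand setting, annotation release, treatment of reads matching several genes, RNA selection and mouse read removal. The counts were used as deposited. Symbols, exons and coordinates came from GENCODE 29. Groups followed the labels.

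Counts were filtered with filterByExpr on the 3 models, scaled by TMM and fitted in 1 quasi-likelihood model of 15 tumors (edgeR 4.0.16, R 4.3.3), with Benjamini-Hochberg adjustment over 21019 genes and a threshold of 0.05. Standard errors are the log2 fold change over the root of F. Sums, shares and correlations carry no test. Scripts were tested on simulated data. Alternatives were RLE, library totals, scaling without the mitochondrial chromosome, other filters, 10 tumors per fit, replicate block, DESeq2 1.42.0, limma-voom (limma 3.58.1) and leaving out each tumor. All 30 replicate pairs differed by more than sampling noise (lowest chi-square over its degrees of freedom 33.6).

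Members, gene lists and alternatives were chosen with earlier results of these data known. Named genes were every mitochondrial and SDH subunit, the isoform sets, NDUFA4 and ATP5IF1, members under 10 counts, in each complex and comparison the 2 called members with the largest increases and decreases, and in each other list and comparison the called gene with the largest of each, at a mean log2 CPM of at least 1. ATP5MF-PTCD1, ATP5MGL, ATP5S and the overlapping genes fall outside that rule and were named after their values were seen. Of the members, 54 share exon bases with another gene and 59 have a pseudogene named after them, so their counts may be divided.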

Additional observations from a re-analysis of the deposited data

Results flagged for a closer look

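In 20 of 165 groups of 5 tumors, the highest or lowest tumor stood apart from the rest by a gap over 0.71 of the range of its group, where chance gives about 1 in 20 groups, or 8.25 here. That figure takes the groups as independent, but genes share the same tumors, so the excess over it cannot be read plainly. The COX7B2 flags rest on 1 count in EGI-1 and 4 counts in HuCC-T1, each in a single tumor. HuCC-A1 replicate 1 was the highest of its model in MT-ATP8 (83.7 CPM), MT-CO1 (32018), MT-CYB (8423), MT-ND5 (5586), MT-ND6 (2376) and the ratio of mitochondrial to nuclear subunits (15.3). HuCC-A1 replicate 2 was highest in NDUFS6 (183 CPM) and SDHA (513). In EGI-1, replicate 1 was highest in ATP5F1B (647 CPM) and lowest in COX7A1 (0.183), replicate 2 highest in COX7B2 (0.0302), and replicate 5 highest in MT-ND4L (489) and in the ratio (9.32). In HuCC-T1, replicate 1 was highest in ATP5MC2 (264 CPM), COX7B2 (0.128), MT-CO3 (12210.1) and NDUFA11 (24.9), replicate 2 highest in MT-ATP8 (95.4) and lowest in UQCRHL (0.553), and replicate 5 highest in SDHB (67.8). The cause of these values was not tested.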

How the results depend on the processing

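The mitochondrial subunits called higher in HuCC-A1 against EGI-1 numbered 9 with library totals and no TMM factors, beside 4. Those called lower in HuCC-A1 against HuCC-T1 numbered 4 with no filter on low counts, 4 with limma-voom and 6 with a replicate block, beside 2. Leaving out 1 tumor at a time gave 1 to 7 called higher and 1 to 2 called lower in HuCC-A1 against EGI-1, 2 to 7 called lower in HuCC-A1 against HuCC-T1, and 19 to 42 nuclear subunits called lower in HuCC-T1 against EGI-1. The cause was not tested. The replicate numbers do not pair the tumors: 2 of 15 same-number pairs correlated above 0.1 (-0.105 to 0.186). A tumor was also set against the tumors of 1 other model, and in 5 of 15 such cases it correlated best with its own number.

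Of 2133 alternative values of the 89 called gene results, 2017 kept direction and call, 116 kept the direction only and 0 reversed. At least 1 alternative ended 23 of these calls, and leaving out a tumor ended 22. With library totals, the median of all genes moved to 0.22 in HuCC-A1 against EGI-1 and 0.18 in HuCC-A1 against HuCC-T1. Isoforms near the floor are limited by depth.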
